A study of Homo sapiens with 12 samples.

Results

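IPO13, MAGOH and RBM8A were taken as a group of 3 genes among the 543 genes of a dual-sgRNA CRISPR interference library. MAGOH and RBM8A are both subunits of the exon junction complex core, and IPO13 is a nuclear import receptor. A construct belonged to the group when it carried a sgRNA of one of these genes in either of its positions, which gave 13656 of 1301881 constructs, with 4560 for each gene and 6 of the 1141 sgRNAs. The choice used gene names and no measured value. How far each sgRNA repressed its gene was not analysed here.

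The cells were K562, an established human chronic myeloid leukemia line, and every library came from the same line with CRISPR interference, in which a sgRNA directs repression to a promoter. Constructs of 2 sgRNAs were counted by sequencing in 2 screens, named 2022 and 2023, each with 2 replicate cultures. Each culture gave 3 libraries, so that 12 libraries fell into 6 groups of 2: T0 cells taken on day 9 after transduction in both screens, a reference arm with vehicle, and an arm with niraparib, an inhibitor of the DNA repair enzymes PARP1 and PARP2. In the 2022 screen niraparib was given at 2 µM for 3 days and both end arms were taken on day 18. In the 2023 screen it was given at 2 µM, raised to 3 µM and removed after 4 days, and both end arms were taken on day 19. The niraparib-treated groups thus differ between the screens in dose, exposure and time, and all groups share the one cell line. All values below are given in the order 2022 replicate 1, 2022 replicate 2, 2023 replicate 1 and 2023 replicate 2.

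The exon junction complex is laid down on messenger RNA upstream of the junctions that splicing leaves. Its core is a clamp of the RNA helicase EIF4A3 locked on RNA by the MAGOH and RBM8A heterodimer, with CASC3 as a further core subunit, and it marks the message for export, translation and nonsense-mediated decay. IPO13, an importin of the importin-beta family, carries the MAGOH and RBM8A dimer back into the nucleus together with other cargoes such as the SUMO-conjugating enzyme UBC9. MAGOHB is a close paralog of MAGOH and also binds RBM8A.

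Each gene had 2 sgRNAs, named by strand and position. The positions in the names were 44412666 and 44412713 for IPO13, 53704169 and 53704245 for MAGOH, and 145507591 and 145507837 for RBM8A, so the sgRNAs of a gene were 47, 76 and 246 bases apart. The genome build of these positions is not given in the sources used here. Because repression is directed to the promoter, the 250 bases upstream of each gene's annotated start are shown from RefSeq (GRCh38.p14), 5′ to 3′ on the gene's own strand; sequences were found for all 3 genes. They lie at chr1:43946700-43946949 (plus strand) for IPO13, chr1:53238519-53238768 (minus strand) for MAGOH and chr1:145927485-145927734 (minus strand) for RBM8A. Capitals mark ACTTCCG, the letters of an ETS-type motif, searched on both strands.
IPO13: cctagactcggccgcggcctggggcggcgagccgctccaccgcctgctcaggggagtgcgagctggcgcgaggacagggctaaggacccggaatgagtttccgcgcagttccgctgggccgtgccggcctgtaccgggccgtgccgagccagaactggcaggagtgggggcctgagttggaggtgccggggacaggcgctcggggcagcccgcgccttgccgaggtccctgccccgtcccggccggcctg
MAGOH: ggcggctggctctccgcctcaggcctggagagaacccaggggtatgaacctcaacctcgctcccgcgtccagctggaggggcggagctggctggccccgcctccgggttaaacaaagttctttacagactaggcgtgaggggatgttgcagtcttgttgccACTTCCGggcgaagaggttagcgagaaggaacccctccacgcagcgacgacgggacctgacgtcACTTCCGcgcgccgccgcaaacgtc
RBM8A: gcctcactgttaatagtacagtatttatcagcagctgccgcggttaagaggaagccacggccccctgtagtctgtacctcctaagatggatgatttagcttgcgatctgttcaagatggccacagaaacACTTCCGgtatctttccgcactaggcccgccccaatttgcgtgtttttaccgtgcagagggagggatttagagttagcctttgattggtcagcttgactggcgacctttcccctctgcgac
The 3 windows differed in base composition, with 74.8% G and C for IPO13, 64.4% for MAGOH and 51.2% for RBM8A. ACTTCCG occurred 2 times in the MAGOH window and 1 time in the RBM8A window, and 5.69% of 35116 promoter windows of this length held it. It was not among the letters of the IPO13 window. GGGCGG, the letters of a GC box, occurred 1 time in each of the 3 windows and in 42.6% of all, and TATAAA, in 10.7% of all, occurred in none of the 3. The ACTTCCG motif was chosen after the sequences were seen, and the matches are a description of the letters only.

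Sequencing depth bore unevenly on the 3 genes. The libraries held 183 to 461 megareads. The median T0 read count per construct over the whole library was 227, 227, 155 and 155, against 142, 137.5, 104 and 105 for constructs with IPO13, 225, 224, 155 and 155 for MAGOH, and 65, 64, 39 and 39 for RBM8A. Interaction scores need enough reads at the start, here 30 on average over the T0 libraries, and 14.8% of the RBM8A constructs (675) fell below that, against 1.95% for IPO13, 0.899% for MAGOH and 2.65% of all constructs. Values for RBM8A pairs therefore rest on fewer reads and fewer constructs. The reads carry no molecular identifiers, so they are not independent molecules.

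RBM8A constructs were already scarce at T0, IPO13 constructs less so, and MAGOH constructs were close to the controls. The level of a gene is the log2 ratio of its reads, summed over the 220 constructs that pair one of its sgRNAs with a non-targeting sgRNA, to those of the 3025 constructs with non-targeting sgRNAs in both positions, which sets the controls at 0. RBM8A stood at −2.23, −2.20, −2.30 and −2.34 in the 4 T0 libraries (mean −2.27 ± 0.062, SD, n = 4), rank 8 from the lowest of 543 genes. IPO13 stood at −0.99, −0.99, −0.79 and −0.82 (mean −0.90 ± 0.11), rank 58. MAGOH stood at −0.32, −0.33, −0.25 and −0.27, rank 207. The ranges of the 3 genes did not overlap. The T0 libraries of all cultures share one cloned library, so a low cloned abundance and growth before day 9 cannot be told apart in these levels.

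After T0 the order changed: the level of IPO13 fell furthest, and those of RBM8A and MAGOH fell less. Growth is the log2 change of the level from T0 to the reference arm, tested with the edgeR quasi-likelihood fit over all genes and controls with Benjamini-Hochberg adjustment. For IPO13 it was −2.55, −2.50, −2.90 and −2.90, with a fitted value of −2.71 (SE 0.017, SD over replicates 0.22, adjusted p = 1.9e-10), lower in 4 of 4 replicates and rank 10 from the lowest of 543 genes. Its neighbours in the order were NOP10 (−2.73) and DKC1 (−2.72), subunits of the H/ACA ribonucleoprotein, and TAF2 (−2.68), a TFIID subunit. The distances to these neighbours were below the SD of IPO13 over replicates.

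For MAGOH growth was −0.53, −0.49, −0.56 and −0.57, with a fitted value of −0.54 (SE 0.012, edgeR adjusted p = 1.71e-08) and rank 254. For RBM8A it was −0.67, −0.63, −0.76 and −0.73, with a fitted value of −0.70 (SE 0.014, edgeR adjusted p = 1.26e-08) and rank 211. The replicates of MAGOH and RBM8A did not overlap with each other, and both lay far above those of IPO13. EIF4A3, their partner in the core, had a growth of −0.69 at rank 214. All 3 members passed the test as lower, but so did 81% of the 543 genes, with 4.24% higher and 85.3% in either direction, so the calls do not set the group apart; the median over all genes was −0.46. The 55 non-targeting sgRNAs, fitted as if they were genes, ranged from −0.064 to 0.076. The SE reflects only the spread inside each screen and leaves out the difference between them.

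The growth of IPO13 differed between the screens: −2.53 in 2022 and −2.90 in 2023, a difference of −0.37 (SE 0.033, edgeR adjusted p = 0.000878). The differences were −0.06 for MAGOH (edgeR adjusted p = 0.144) and −0.09 for RBM8A (edgeR adjusted p = 0.0583). RBM8A did pass with DESeq2 (−0.092, adjusted p = 0.0153) and with edgeR without 2022 replicate 1 (−0.11, adjusted p = 0.040), and MAGOH with its first sgRNA alone (−0.15, edgeR adjusted p = 0.036). Of all genes, 31.1% passed this test. The reference arms were taken on day 18 in 2022 and on day 19 in 2023, and the part of that in the difference was not tested. In the phenotype tables that the authors deposited, which list fewer constructs, growth is divided by a constant per culture. Multiplied by it, IPO13 growth there was −2.46, −2.43, −2.52 and −2.52, a much smaller gap between the screens. As deposited, the values were −0.343, −0.314, −0.313 and −0.315. Why the gap differs between these measures was not tested.

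Both sgRNAs of IPO13 gave the same growth within the replicate SD, at −2.73 and −2.70, and so did both of RBM8A, at −0.69 and −0.71. The MAGOH sgRNAs differed from each other. The one at position 53704169 gave −0.99, −0.92, −1.07 and −1.15, and the one at position 53704245 gave −0.26, −0.23, −0.25 and −0.23, with no overlap between them. The growth of −0.54 for MAGOH is thus an average of a stronger and a weaker sgRNA. Constructs that carried both sgRNAs of a gene changed by −4.25 for IPO13 and −1.25 for MAGOH over the 4 replicates, on the per-construct scale of the pairs described further on. Those of RBM8A had a mean of 18.1 T0 reads and were not scored.

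Among the other genes of the pathway in the library, 4 of 6 exon junction and peripheral factors fell in growth and none rose, where 81% of all genes fell. These were EIF4A3 (−0.69), RNPS1 (−0.33), an auxiliary splicing factor, CASC3 (−0.23), and UPF3A (−0.06), which links the complex to decay. MAGOHB, at 0.01 (edgeR adjusted p = 0.388), and UPF3B, at −0.00 (edgeR adjusted p = 0.924), did not pass. Of 10 nonsense-mediated decay genes, 8 fell and SMG1, the kinase that phosphorylates UPF1, rose by 0.06. The lowest were the translation termination factors GSPT1 (−1.0) and ETF1 (−0.70), followed by the helicase UPF1 (−0.33) and its partner UPF2 (−0.33). All 3 nuclear transport genes fell: RCC1 (−1.17), the nucleotide exchange factor that charges RAN, RANBP3 (−0.73), an export cofactor, and KPNB1 (−0.52), importin beta itself. The medians were −0.15 for the exon junction list and −0.24 for the decay list, both above the median of −0.46 over all genes, and IPO13 lay below every gene of these 3 lists. The 5 measured splicing and snRNP assembly genes all fell too (median −1.17). UPF3A and SMG1 passed the test, but their values lay inside the range of the non-targeting sgRNAs, of which 3 of 55 also passed. These directions are relative to the non-targeting controls. Scaled over all genes instead, by TMM or by the median of ratios, the median gene moved from −0.46 to −0.01 or −0.07, and 5 of 6 exon junction genes and 8 of 10 decay genes then rose, while EIF4A3, GSPT1, ETF1, the transport genes, the splicing genes and the 3 members stayed lower in both scalings. The growth of the members was then −2.26 or −2.32 for IPO13, −0.082 or −0.15 for MAGOH and −0.24 or −0.31 for RBM8A.

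Relative to the non-targeting controls, cells with IPO13 or MAGOH knockdown were more abundant after niraparib than in the reference arm, while the RBM8A value was small and its call depended on the fit. The response, the log2 change of the niraparib arm over the reference arm, was 0.44, 0.38, 0.46 and 0.52 for IPO13 (fitted value 0.45, edgeR adjusted p = 1.65e-06), rank 513 from the lowest of 543. For MAGOH it was 0.16, 0.12, 0.11 and 0.12 (fitted value 0.13, edgeR adjusted p = 6.75e-05), rank 375, and for RBM8A 0.09, 0.10, 0.09 and 0.06 (fitted value 0.08, edgeR adjusted p = 0.00161), rank 346. The RBM8A call was lost with one arm term for both screens (0.085, edgeR adjusted p = 0.0504), with RBM8A in the first position only (0.044, edgeR adjusted p = 0.084) and with its second sgRNA alone (0.050, edgeR adjusted p = 0.109). All 12 values were above 0, yet 79.9% of all genes passed this test, 44.2% as higher and 35.7% as lower, and the non-targeting sgRNAs ranged from −0.085 to 0.049. The difference in response between the screens did not pass for any of the 3 (edgeR adjusted p = 0.303 for IPO13, 0.63 for MAGOH and 0.628 for RBM8A), in a test that only 0.368% of genes passed.

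The direction of these responses turned with the scale. The deposited phenotype values are divided by a constant that was larger in the reference arm (7.19, 7.73, 8.04 and 7.98) than in the niraparib arm (5.32, 5.36, 5.4 and 4.98) of the same culture. When the change under niraparib was scaled up to the reference arm's constant before the growth was subtracted, IPO13 was at −0.30, −0.56, −0.74 and −0.91 (mean −0.63, limma adjusted p = 0.009). On that scale MAGOH was at 0.03, −0.05, −0.11 and −0.14 (mean −0.07, limma adjusted p = 0.177) and RBM8A at −0.11, −0.13, −0.24 and −0.35 (mean −0.21, limma adjusted p = 0.0204). The median of all genes was −0.197 on that scale, with 319 genes lower and 44 higher. So the loss of cells with IPO13 knockdown was smaller in the niraparib arm in total and larger relative to the constant.

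At the end of the niraparib arm, IPO13 had changed by −2.26 from T0, MAGOH by −0.41 and RBM8A by −0.61, in a comparison in which 87.7% of all genes passed the edgeR test. The sign for MAGOH held only relative to the non-targeting controls: scaled by TMM over all genes it was 0.03, a scaling that moved the median of all genes from −0.58 to −0.14. The pathway lists split in their response. UPF2 (−0.44), UPF1 (−0.24), the decay factor SMG5 (−0.21) and SMG1 (−0.05) fell, while GSPT1 (0.18) and ETF1 (0.10) rose, which made 4 lower and 2 higher of 10 decay genes. The SMG1 value lay inside the range of the non-targeting sgRNAs. Of the 6 exon junction genes, RNPS1 rose (0.11), UPF3B fell (−0.11), and EIF4A3 (0.03), MAGOHB (−0.01) and CASC3 (−0.04) did not pass. These counts moved with the scaling: by TMM 6 decay genes were lower and 2 higher, and 3 exon junction genes lower and 1 higher, while by the median of ratios the counts were 3 and 2, and 1 and 3.

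Constructs that combined IPO13 with MAGOH were among the scarcest pairs in the library at T0 relative to what their singles gave. In a construct with sgRNAs of 2 genes, the sum of both single levels is one expectation for the level of the pair. Here a level is log2 of a construct's reads with 1 added, relative to the median of non-targeting pairs. Single levels are then means over constructs, so the sums differ somewhat from those of the summed-read levels above. For IPO13 with MAGOH the observed T0 level was −2.57, against a sum of −1.25. The difference was −1.23, −1.19, −1.58 and −1.30 in the 4 T0 libraries (mean −1.32 ± 0.17, SD, n = 4), a 2.50-fold shortfall. All 8 constructs, which cover 4 sgRNA pairs in both orders, lay below their expectation, by values from −1.81 to −1.01. They held a mean of 41.1 T0 reads.

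MAGOHB, whose own knockdown left growth at 0.01, showed a shortfall with both. MAGOH with MAGOHB stood at −1.56 against a sum of −0.46, a difference of −1.01, −0.99, −1.16 and −1.25 (mean −1.10 ± 0.13). IPO13 with MAGOHB stood at −1.89 against −1.08, a difference of −0.74, −0.87, −0.87 and −0.79 (mean −0.82 ± 0.065). In both pairs 7 of 8 constructs were below the sum. The shortfall followed one MAGOHB sgRNA: the one at position 10765957 gave −2.30 and −1.75 with the MAGOH sgRNAs and −1.65 and −1.43 with those of IPO13, while the one at 10765714 gave −0.19, −0.17, −0.18 and −0.01.

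By this measure the sgRNAs of IPO13, those of MAGOH and the MAGOHB sgRNA at 10765957 were one another's lowest partners. For each of the 2 IPO13 sgRNAs and each of the 2 MAGOH sgRNAs, the 3 lowest of 1084 partner sgRNAs were the MAGOHB sgRNA at 10765957 and both sgRNAs of the other gene. For the IPO13 sgRNA at 44412666 these were −1.65, −1.62 and −1.50, and the fourth, of the phosphatase PTPN1, was at −0.88. For the MAGOH sgRNA at 53704245 they were −1.75, −1.62 and −1.10, and the fourth, of the transcription factor ZNF131, was at −0.75. The 4 lowest partners of the MAGOHB sgRNA at 10765957 were both sgRNAs of MAGOH and both of IPO13. For the MAGOHB sgRNA at 10765714 the MAGOH sgRNAs ranked 123 and 141 and the IPO13 sgRNAs 130 and 404.

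By the sum of the levels, the pairs of RBM8A, the binding partner of both MAGOH paralogs, did not lie below their expectation on average. MAGOH with RBM8A lay above its sum by 0.45, 0.52, 0.46 and 0.46 (mean 0.47 ± 0.033), with 0 of 8 constructs below. IPO13 with RBM8A differed by 0.06, 0.36, −0.03 and 0.48, and RBM8A with MAGOHB by 0.17, 0.01, 0.07 and 0.09. The sgRNAs were not alike: the IPO13 sgRNA at 44412666 with the RBM8A sgRNA at 145507591 lay at −0.49, rank 11 of its 1084 partner sgRNAs. EIF4A3 lay above the sum with all 3 members, by 0.77 with IPO13, 0.66 with MAGOH and 1.55 with RBM8A, with 0 of 8 constructs below in each pair, and CASC3 lay close to it, by 0.05, 0.13 and 0.21. RBM8A constructs started at −2.27, and the part of their low counts in these values was not tested. Over all 1084 partner sgRNAs the median difference from the sum was itself above 0. It was 0.14 and 0.13 for the IPO13 sgRNAs, 0.22 and 0.10 for those of MAGOH and 0.29 and 0.29 for those of RBM8A. Lying above the sum therefore does not by itself set a pair apart.

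A score that takes each sgRNA's own behaviour with all partners into account placed the same 3 pairs lowest, in the same order, while some pairs with RBM8A changed sign. The levels of all pairs that share a sgRNA were fitted as a degree 2 function of the partners' own levels, the deviation from both sgRNAs' curves was averaged over the sgRNA pairs of a gene pair, and limma tested the 4 replicates with Benjamini-Hochberg adjustment over 147153 pairs. This T0 level score was added after the data had been seen. It was −1.49, −1.43, −1.73 and −1.49 for IPO13 with MAGOH (mean −1.53 ± 0.13, limma adjusted p = 1.06e-06), rank 3 from the lowest of all pairs. The pairs ranked lower were AURKA with CSTF1 (−1.83) and LIG1 with LIG3 (−1.56), the latter both DNA ligases. MAGOH with MAGOHB scored −1.21 (rank 10, limma adjusted p = 1.9e-06) and IPO13 with MAGOHB −0.92 (rank 22, limma adjusted p = 1.06e-06). RBM8A with MAGOHB scored −0.11, against a difference from the sum of 0.084.

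The T0 test passed 32.3% of all pairs, 15.5% as lower and 16.8% as higher, so its p-value says little by itself and the ranks carry the comparison; the first percentile of all scores was −0.279. IPO13 with RBM8A scored −0.57, −0.23, −0.49 and −0.06 (mean −0.34, rank 728), below that percentile and of the opposite sign to its difference from the sum (0.22). MAGOH with RBM8A scored 0.10, below its difference from the sum but of the same sign. The 4 T0 libraries share one cloned library, so their agreement measures the spread between libraries, and a low cloned abundance of these constructs and a loss of cells before day 9 cannot be told apart.

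In the change after T0, cells with both IPO13 and MAGOH sgRNAs were lost less than cells with IPO13 sgRNAs alone. This change subtracts the T0 reads of the same constructs, so it is not independent of the T0 level. Here each construct's change is log2 of end over T0 reads with 1 added to each count, relative to non-targeting pairs, and single values are means over constructs, so they differ from the fitted sums above (−2.81 for IPO13, −0.65 for MAGOH and −0.76 for RBM8A in the reference arm). The IPO13 and MAGOH pair changed by −1.48, −1.55, −1.64 and −1.72 (mean −1.60 ± 0.11) in the reference arm. IPO13 alone changed by −2.64, −2.62, −2.98 and −2.99, so no replicate of the pair overlapped with it, and the pair lay 1.21 ± 0.12 above the lower single. The sum of both singles was −3.46.

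The interaction score, the same deviation from the curves computed on the change after T0, was 1.03, 0.87, 1.19 and 1.11 for this pair (mean 1.05, limma adjusted p = 0.00524 over 147044 pairs), rank 147035 from the lowest, so 9 pairs in the library scored higher. With the first sgRNAs of both genes alone it was 1.37 (limma adjusted p = 0.052) and with the second alone 0.47 (limma adjusted p = 0.193), so the call was lost in both. In the niraparib arm the pair changed by −1.37, −1.45, −1.40 and −2.22 and scored 0.65, 0.60, 0.98 and 0.14 (mean 0.59, limma adjusted p = 0.045). Replicate 2 of 2023 was lowest in both, and without it the mean was 0.74 (limma adjusted p = 0.0305). Without 2022 replicate 1, 2022 replicate 2 or 2023 replicate 1 the call was lost, at 0.57, 0.59 and 0.46 (limma adjusted p = 0.108 to 0.14). The difference between the arms was −0.46 (limma adjusted p = 0.237).

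These positive scores stand beside the low start of the same constructs. Without subtraction of T0, the level score of IPO13 with MAGOH was −0.49 in the reference arm (limma adjusted p = 0.00154) and −0.96 in the niraparib arm (limma adjusted p = 0.00228), against −1.53 at T0. Of all pairs, 28.8% passed the level test in the reference arm and 28.4% in the niraparib arm. By the sum of the single levels the pair ended 0.53 above it in the reference arm and at −0.06 in the niraparib arm. At no time was the pair more abundant than the curves of its sgRNAs gave. The 4 sgRNA pairs scored 1.37, 1.01, 1.35 and 0.47 in the reference arm, each on 12 to 80 T0 reads per construct, and what the low T0 count contributes to the scores was not tested.

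MAGOH with RBM8A changed about as much as each of the genes alone. In the reference arm MAGOH alone changed by −0.65 and RBM8A alone by −0.76, with a sum of −1.41. The pair changed by −0.71, −0.58, −0.71 and −0.88 (mean −0.72). Its score was 0.19, 0.24, 0.25 and 0.07 (mean 0.19, limma adjusted p = 0.102), above 0 in 4 of 4 replicates but not past the threshold. In the niraparib arm it was 0.42, −0.30, 0.36 and 0.30 (mean 0.19, limma adjusted p = 0.412), with replicate 2 of 2022 apart from the rest, and the difference between the arms was 0.01 (limma adjusted p = 0.991).

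IPO13 with RBM8A had enough T0 reads for 2 of its 4 sgRNA pairs. The pair changed by −1.83, −2.36, −1.89 and −1.43 (mean −1.88) in the reference arm. Its score was 0.39, −0.20, 0.61 and 1.04 (mean 0.46, limma adjusted p = 0.234) there and 0.16 in the niraparib arm (limma adjusted p = 0.584), with replicates on both sides of 0 in both. Of the 3 pairs within the group, 1 passed the test in the reference arm, where 2.35% of all pairs did, and the same pair in the niraparib arm, where 5.12% did.

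MAGOHB, in contrast to its T0 shortfall, had no called interaction with the members after T0. With MAGOH it scored −0.28, −0.15, −0.40 and −0.06 in the reference arm (mean −0.22, limma adjusted p = 0.13) and −0.22 in the niraparib arm (limma adjusted p = 0.0887). With IPO13 it scored 0.44 (limma adjusted p = 0.0998) and 0.27 (limma adjusted p = 0.123). By level, MAGOH with MAGOHB stayed low to the end, at −1.46 in the reference arm (rank 25 from the lowest of 147153) and −1.45 in the niraparib arm (rank 12), and IPO13 with MAGOHB stood at −0.57 and −0.72. EIF4A3 scored 0.26 with IPO13, 0.19 with MAGOH and 0.14 with RBM8A in the reference arm, none past the limma threshold. Of the 6 exon junction genes and the 10 decay genes, none passed with any of the 3 members in the reference, niraparib or differential score by limma. Over these 3 scores and 3 members, 11 of 54 exon junction values and 13 of 90 decay values had an unadjusted limma p under 0.05. Over all partners, such values in the reference arm were 118 of 541 for IPO13, 105 of 542 for MAGOH and 229 of 540 for RBM8A. In the niraparib arm they were 116, 122 and 208, and between the arms 77, 35 and 97. The list counts are therefore not read as a result about these genes.

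The members also differed in how far a second knockdown still showed through. The slope of a sgRNA's pair phenotypes on its partners' single phenotypes gives the share of a partner's phenotype that remained when the sgRNA was present. In the reference arm it was 0.084 and 0.064 for the IPO13 sgRNAs, 0.46 and 0.87 for those of MAGOH and 0.40 and 0.23 for those of RBM8A, against a median of 0.81 for gene sgRNAs and 0.997 for non-targeting sgRNAs. Under niraparib the slopes were 0.22 and 0.18, 0.54 and 0.88, and 0.45 and 0.27. IPO13 and RBM8A, with the lowest slopes, were also the scarcest at the end of the reference arm, at levels of −3.61 and −2.96 against −0.83 for MAGOH. What low end counts contribute to the slopes was not tested.

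The share of partners called after T0 differed among the members. In the reference arm, 4 partners of IPO13 scored lower and 12 higher of 541 (2.96%), and 0 of MAGOH scored lower and 5 higher of 542 (0.923%), against 2.35% of all pairs, 1.28% lower and 1.07% higher. RBM8A had the most, with 0 lower and 58 higher of 540 (10.7%). At an unadjusted limma p under 0.05, 20 partners of MAGOH and 21 of RBM8A were lower. In the niraparib arm the counts were 8 lower and 11 higher for IPO13 (3.51%), 0 and 16 for MAGOH (2.95%), and 0 and 91 for RBM8A (16.9%), against 5.12% of all pairs, 2.63% lower and 2.49% higher. Between the arms, in a test that 0.468% of all pairs passed, 1 partner of IPO13, 0 of MAGOH and 6 of RBM8A (1.11%) differed. For MAGOH 35 partners had an unadjusted limma p under 0.05 in that test. The counts were smaller with 3 replicates: 78 pairs with a member passed in the reference arm with all 4, and 12, 9, 25 and 11 without 2022 replicate 1, 2022 replicate 2, 2023 replicate 1 and 2023 replicate 2. For the niraparib arm 125 passed with all 4, and 43, 41, 40 and 46 in the same order. IPO13 with MAGOH passed in the reference arm in all 4 of these fits.

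The RBM8A count rested on how the 2 curves were combined. With RBM8A's own curve alone, 7 partners scored lower and 4 higher in the reference arm and 10 lower and 6 higher in the niraparib arm. Over all pairs, taking 1 curve gave 1.29% lower and 1.02% higher in the reference arm and 2.63% lower and 2.43% higher in the niraparib arm. The median RBM8A score fell from 0.126 to 0.02 in the reference arm and from 0.135 to 0.002 in the niraparib arm. With their own curves alone, IPO13 had 13 lower and 17 higher partners in the reference arm and MAGOH 5 and 3. Deviations from a sgRNA's own curve balance out over its partners by construction. The lower medians and the more even counts of RBM8A therefore follow largely from the fit, and the source of its higher scores was not tested.

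Many calls of the single partners described next were lost with 1 replicate left out. Of 42 such calls, 31, 30, 26 and 30 were lost without 2022 replicate 1, 2022 replicate 2, 2023 replicate 1 and 2023 replicate 2, and 12 with screen as a term. Of 41 that could be scored with 1 sgRNA of the member, 16 were lost with the first alone and 26 with the second alone.

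The 4 partners of IPO13 that scored lower in the reference arm were SHMT2, SFXN1, PARP1 and NUDC. SHMT2, the mitochondrial serine hydroxymethyltransferase, scored −0.42, −0.38, −0.74 and −0.48 (mean −0.51, limma adjusted p = 0.0244). SFXN1, the mitochondrial serine transporter, scored −0.29, −0.55, −0.55 and −0.36 (mean −0.44, limma adjusted p = 0.0249). All replicates of both were below 0. The SHMT2 pair changed by −3.55, against −2.81 for IPO13 and −1.69 for SHMT2 alone. PARP1, the target of niraparib, scored −0.27 (limma adjusted p = 0.0482) and NUDC, a dynein cofactor, −0.26 (limma adjusted p = 0.0451). Against the sum of the singles all 4 turned positive, at 0.95, 0.83, 0.44 and 0.85. The growth of PARP1 alone was uneven, at −1.35 in 2022 replicate 1 against −0.56, −0.58 and −0.54 in the other replicates. With 1 replicate left out, the score of IPO13 with PARP1 was −0.32 to −0.24.

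Apart from MAGOH, the higher partners of IPO13 in the reference arm with the largest scores were PLK1 (0.55, limma adjusted p = 0.0152), RPA2 (0.55, limma adjusted p = 0.00975), AURKA (0.52, limma adjusted p = 0.01) and PPP2R1A (0.43, limma adjusted p = 0.035). PLK1 and AURKA are mitotic kinases, PPP2R1A is the scaffold of the phosphatase PP2A, and RPA2 is a subunit of the single-strand DNA binding protein RPA. With RPA2 the replicates were 0.53, 0.42, 0.64 and 0.59, and the pair changed by −1.84 against −2.81 for IPO13 alone. AURKA and PPP2R1A also had low T0 level scores with IPO13, of −0.59 and −0.61, while RPA2 had a high one of 0.55. PLK1 was scored for 2 of 4 sgRNA pairs, and all 8 constructs of the pair held a mean of 23.6 T0 reads.

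Under niraparib the lowest IPO13 scores were with NOL6 (−0.95, limma adjusted p = 0.014), a factor of ribosome assembly, PCBP1 (−0.50), an RNA-binding protein, RFC1 (−0.48), the large subunit of the clamp loader, CDK2 (−0.41) and ORC4 (−0.39), a subunit of the origin recognition complex. The highest were with HAUS1 (0.82), a subunit of the augmin complex of the spindle, LIN52 (0.74), of the DREAM complex, TOP2A (0.61), MAGOH (0.59) and HJURP (0.51), the chaperone that loads centromeric histone. For HAUS1 the replicates were 0.65, 0.63, 1.08 and 0.94, and for LIN52 0.85, 0.50, 0.85 and 0.77. Both pairs also had low T0 level scores, of −0.35 and −0.39. HAUS1 and NOL6 were each scored with IPO13 for 2 of 4 sgRNA pairs. All constructs of these gene pairs held a mean of 23.97 T0 reads for HAUS1 and 26.25 for NOL6. RPA2 was the 1 partner of IPO13 that differed between the arms, by −0.48, −0.35, −0.38 and −0.32 (mean −0.38, limma adjusted p = 0.0495).

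Of the 12 measured genes of the mitosis and centrosome list, 9 had a lower T0 level score with IPO13 and 0 a higher one. Their median was −0.31, and 2 of the 12 then scored higher in the reference arm and 4 in the niraparib arm. With MAGOH 6 of 12 were lower at T0, and 2 scored higher in each arm afterwards. With RBM8A 1 was lower and 5 higher at T0 (median 0.082), and 3 scored higher in the reference arm and 4 in the niraparib arm. Over all partners, 113 of IPO13 were lower and 141 higher at T0 (46.9% in all), 56 and 155 of MAGOH (38.9%), and 97 and 192 of RBM8A (53.3%), against 32.3% of all pairs. Of the decay genes, 4 of 10 were lower and 0 higher with IPO13 at T0, 0 lower and 3 higher with MAGOH, and 1 lower and 5 higher with RBM8A.

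The partners of MAGOH past the test in the reference arm, all higher, included IPO13, HAUS1 (0.49), HJURP (0.39, limma adjusted p = 0.0145) and NHP2 (0.29), a further subunit of the H/ACA ribonucleoprotein. HJURP scored 0.44, 0.35, 0.40 and 0.36 and NHP2 0.32, 0.30, 0.28 and 0.28, close together over the replicates. HAUS1 was scored with MAGOH for 2 of 4 sgRNA pairs, and all constructs of the gene pair held a mean of 34.2 T0 reads. The highest in the niraparib arm after IPO13 were HJURP (0.36), AURKA (0.36), the arginine methyltransferase PRMT5 (0.32) and NAA25 (0.31), of an N-terminal acetyltransferase. At T0, after IPO13 and MAGOHB, the lowest MAGOH partners were ZNF131 (−0.55, −0.61, −0.72 and −0.72), RBBP5 (−0.38), a subunit of histone methyltransferase complexes, and AURKA (−0.35). ZNF131 stayed low by level to the end, at −0.92 in the reference arm.

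RBM8A scored highest with CAD, the enzyme that starts pyrimidine synthesis, at 1.39, 1.09, 0.32 and 1.29 in the reference arm (mean 1.02, limma adjusted p = 0.0385), with replicate 1 of 2023 far below the others. It was scored for 2 of 4 sgRNA pairs, and all 8 constructs of the pair held a mean of 25.8 T0 reads. HJURP (0.83), ATXN10 (0.79), the dynactin subunit DCTN3 (0.74) and the mitochondrial prolyl-tRNA synthetase PARS2 (0.69) followed. With HJURP the pair changed by −1.74, against −3.24 for HJURP alone. With RBM8A's own curve alone none of these 5 passed (CAD 0.45, HJURP 0.37, ATXN10 0.35, DCTN3 0.27, PARS2 0.29; limma adjusted p = 0.0538 to 0.167). Under niraparib ATXN10 (0.79), DCTN3 (0.79), the clamp loader subunit RFC5 (0.73), COPS5 (0.72), of the COP9 signalosome, and NAMPT (0.72), which makes NAD, were highest. Of these, ATXN10 (0.38), RFC5 (0.38) and COPS5 (0.38) still passed with RBM8A's own curve.

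The scores of RBM8A with DNA repair genes under niraparib depended on the curve. Of the homologous recombination genes, 12 of 26 scored higher with RBM8A in this arm (median 0.365), 4 of 6 genes for the repair of damaged bases and single-strand breaks (median 0.391) and 5 of 15 Fanconi anemia genes (median 0.265), while 91 of all 540 RBM8A partners (16.9%) scored higher and the median was 0.135. With RBM8A's own curve 0 of these genes scored higher in any of the 3 lists, and 1 homologous recombination gene and 2 Fanconi anemia genes scored lower.

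Between the arms, RBM8A differed with 6 partners, but with screen as a term 0 of the 7 differential calls of the members passed. BRCA2, a homologous recombination factor, scored 0.45, 0.45, 0.39 and 0.40 (mean 0.42, limma adjusted p = 0.0323), PALB2, its partner, 0.37, 0.56, 0.62 and 0.71 (mean 0.56, limma adjusted p = 0.0387), and XRCC1, the scaffold of single-strand break repair, 0.95, 0.63, 0.90 and 0.55 (mean 0.76, limma adjusted p = 0.0296). Under the drug the pairs changed by −3.16 with BRCA2, −0.94 with PALB2 and −1.50 with XRCC1. The repair genes alone changed by −4.42, −1.99 and −2.57. In the reference arm these genes alone changed by −1.41, −0.66 and −0.45, with wide SDs over replicates of 0.60, 0.26 and 0.26. The PP2A catalytic subunit PPP2CA was also higher (0.51, limma adjusted p = 0.0448). BLM, the helicase, was lower at −0.71, −0.54, −0.53 and −0.54 (mean −0.58, limma adjusted p = 0.0215), as was the nucleoporin NUP62 (−0.43, limma adjusted p = 0.0495), on 1 sgRNA pair.

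With RBM8A's own curve the differential calls with BRCA2 (0.34), PALB2 (0.37), XRCC1 (0.47) and NUP62 were lost (limma adjusted p = 0.0611 to 0.201), while BLM (−0.58) and PPP2CA (0.75) still passed. BLM and PPP2CA were each scored with RBM8A for 3 of 4 sgRNA pairs. All constructs of these gene pairs held a mean of 39.0 T0 reads for BLM and 35.75 for PPP2CA. With a straight line in place of the degree 2 curve the BRCA2 value turned to −0.12 (limma adjusted p = 0.482). No differential call of any member passed when 1 replicate was left out.

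The profiles of the members over all partners were compared by Pearson correlation across 539 to 541 partner genes, which share libraries and the same constructs' depth, so the values are descriptions. At T0, MAGOH had the profile most like that of IPO13 among 542 genes and IPO13 the one most like that of MAGOH, at r = 0.58. RBM8A was next for MAGOH at r = 0.49. RBM8A itself was most like RUVBL1 (r = 0.72), a AAA ATPase, HSPA4 (r = 0.72), a chaperone, and EIF4A3 (r = 0.71), its partner in the exon junction core.

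Those T0 profiles are of level scores. The later ones are of interaction scores, computed on the change after T0, and so are not the same measure. By interaction score IPO13 and MAGOH were at r = 0.19 in the reference arm, rank 121 and 195 from the other's side. MAGOH and RBM8A were at r = 0.35 there and at r = 0.48 in the niraparib arm, where RBM8A ranked 2 for MAGOH. EIF4A3 was among the profiles most like RBM8A in both arms, at r = 0.56 and r = 0.62. IPO13 was most like HJURP in the reference arm, at r = 0.43, and most like CSTF1 in the niraparib arm, at r = 0.33. All these values come from scores averaged over the same 4 replicates.

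The authors' deposited tables of phenotypes hold fewer of these constructs than the counts do. For RBM8A they list 2721 of 4560 constructs in 2022 and 729 in 2023, where only 1 of its sgRNAs is listed. For IPO13 they list 4259 and 3901 and for MAGOH 4437 and 4293. Averaged over the listed constructs with non-targeting sgRNAs and multiplied by their constant, those tables gave a growth of −2.48 for IPO13 and −0.63 for MAGOH.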

How the data were processed

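Per the labels' protocols, the sgRNA regions of genomic DNA from K562 cells were amplified and sequenced; no molecular identifiers are named. Per the submitters' processing notes, Bowtie2 2.3.4.1 was used, with no role given. The authors deposited counts of reads per construct, all whole numbers, with unequal library totals, and phenotype tables whose values are log2 ratios that the authors divided by a constant. Per the labels, the 3 libraries of a replicate number come from one culture.

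Single genes were tested on counts summed over constructs with non-targeting sgRNAs (edgeR 4.0.16 quasi-likelihood in R 4.3.3; library size, reads of non-targeting pairs; a block per culture and a term per arm and screen; biological coefficient of variation 3.06%, 4 residual degrees of freedom). Adjustment was by Benjamini-Hochberg over 598 rows at 0.05. Interaction scores used a mean T0 count of at least 30, 1 added to each count, both orders averaged, a curve of degree 2 per sgRNA with at least 100 partners, and limma 3.58.1 over 4 replicates; pairs below 0 were more depleted than the curves gave. The differential score subtracts, within a culture, the reference score from the niraparib score.

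The samples are cultures of one line, so p-values measure the spread between these cultures. The genes, gene lists and tests were chosen with earlier results of these data known. Named partners were, per member and score, up to 5 lowest and 5 highest past the threshold with one sign in all 4 replicates, with the genes of the exon junction, decay and transport lists, the most extreme genes of other lists, the neighbours in single growth and the profiles most alike; some named items are not reported here. Cell type markers did not apply, as one cell line was used. As a check of the pairing, the replicate difference was correlated between arms over 1301881 constructs (Pearson r 0.0311 to 0.0816); the pairing rests on the labels. Tested on simulated data, the single-gene fit recovered 72% of changes of 0.1 and 100% of changes of 0.25, and the interaction test 2% of scores of 0.25, 62% of 0.5 and 100% of 1. Simulated pairs changed by the sum of their singles, plus the known effect in pairs drawn at random from the library. Recovery for pairs of these members was not measured. Promoter sequences came from RefSeq (GRCh38.p14). The alternatives named in the closing section were tried; those on T0 levels, on RBM8A's own curve, without a minimum T0 count, on the scaled response and on the deposited values were chosen after seeing the data.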

Additional observations from a re-analysis of the deposited data

Results flagged for a closer look

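In 7 of 92 sets of 4 replicates, 1 culture lay apart from the other 3 by more than Dixon's critical value for 4 samples, where chance gives about 1 in 20. MAGOH with RBM8A stood at −0.54 in 2022 replicate 2 for the differential interaction score, with the other replicates at 0.11 to 0.23, and at −0.30 in the same replicate for the niraparib interaction score, with the others at 0.30 to 0.42. RBM8A with BLM stood at −0.71 in 2022 replicate 1 for the differential interaction score, with the others at −0.54 to −0.53. Among T0 level scores, 2022 replicate 1 lay apart for IPO13 with RIOK1 (0.63, others 0.46 to 0.48), for MAGOH with RBBP5 (−0.28, others −0.43 to −0.41) and for MAGOH with POLA1 (0.27, others 0.38 to 0.40). RBM8A with CLSPN was at 0.56 in 2022 replicate 2 (others 0.75 to 0.77).

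The growth of IPO13 knockdown differed between the screens by −0.37 (2023 minus 2022, edgeR adjusted p = 0.000878), and both replicates of 2023 lay below both of 2022. In the deposited values multiplied by their constant the gap was much smaller, with −2.46 and −2.43 in 2022 and −2.52 and −2.52 in 2023.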

How the results depend on the processing

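The replicate block changed no call of the members: without it 465 genes were called in growth against 463 with it, and 438 in response against 434, with growth of −2.71, −0.54 and −0.70 for IPO13, MAGOH and RBM8A. Growth from the deposited values was −2.48 for IPO13 and −0.63 for MAGOH, and the response of IPO13 was 0.37. The RBM8A response did not pass with one arm term for both screens (0.085, edgeR adjusted p = 0.0504), in the first position only (0.044, 0.084) or with its second sgRNA alone (0.050, 0.109). Scaled to the reference arm's constant, the responses reversed to −0.63, −0.067 and −0.21. The change of MAGOH over T0 under niraparib reversed to 0.033 with TMM and 0.026 with median-of-ratios size factors. The screen difference in growth passed for RBM8A with DESeq2 (−0.092) and for MAGOH with its first sgRNA (−0.15). Genes with a screen difference in response were 2, against 1 with median-of-ratios factors, 1 in the first and 1 in the second position, 1 with the first and 5 with the second sgRNA, and 66 with DESeq2. Leaving out 1 replicate gave 0 to 250 of these genes, 34 to 352 genes with a screen difference in growth against 169, and −0.11 to −0.074 for RBM8A.

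Pairs with a member past the threshold in the reference arm were 78, against 26 with at least 100 T0 reads, 184 with 10 added to each count, 160 with a straight line, 1066 with the sum of the singles and 48 with the member's own curve. For the niraparib arm they were 125, against 48, 205, 1099 with the sum and 82 with the own curve. Between the arms they were 7, against 1, 22, 3 with a straight line, 293 with the sum, 4 with the first sgRNA, 4 with the second and 0 with screen as a term. With 1 replicate left out they were 9 to 25, 40 to 46 and 0 to 0.

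IPO13 with MAGOH did not pass in the reference arm with the first IPO13 and MAGOH sgRNAs alone (1.37, limma adjusted p = 0.052) or the second (0.47, 0.193), nor in the niraparib arm with the second (0.27) or with screen as a term (0.59, 0.07). Its niraparib score was 0.46 to 0.74 with 1 replicate left out. IPO13 with RBM8A passed in the reference arm without a T0 minimum (0.65) and under the sum (1.67), and in the niraparib arm under the sum (1.21). MAGOH with RBM8A passed in the reference arm with a straight line (0.25), under the sum (0.69) and with the first sgRNAs (0.49), and under the sum in the niraparib arm (0.58). The differences between the arms passed under the sum for IPO13 with MAGOH (−0.61) and with RBM8A (−0.47). Under the sum, IPO13 scores reversed with SHMT2 (0.95), SFXN1 (0.83), PARP1 (0.44), NUDC (0.85), NOL6 (1.22), PCBP1 (0.47) and RFC1 (0.90). RBM8A reversed with NUP62 without a T0 minimum (0.0076) and with BRCA2 under a straight line (−0.12).

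T0 level scores reversed under the sum for IPO13 with RBM8A (0.22) and RBM8A with MAGOHB (0.084). With 1 T0 library left out, MAGOH with RBM8A was 0.089 to 0.12 and RBM8A with MAGOHB −0.13 to −0.092, and both lost the call in some of these fits, while IPO13 with MAGOH was −1.57 to −1.47 and kept it. Profile likeness in the reference arm was 0.065 for IPO13 with MAGOH in 2023 alone and 0.043 in the differential score, 0.015 for IPO13 with RBM8A in 2022 alone, and 0.19 for MAGOH with RBM8A in 2022 alone and 0.26 in the differential score. Under niraparib it was 0.12 (Spearman) and 0.076 (2023 alone) for IPO13 with MAGOH, 0.031 (2023 alone) for IPO13 with RBM8A, and 0.33 and 0.36 in 2022 and 2023 alone for MAGOH with RBM8A. Under at least 100 T0 reads the 3 pairs within the group could not be scored. Except where a construction says it (fewer constructs, replicates or genes), the cause was not tested. Counts limit RBM8A pairs most.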
